A study of Mus musculus with 8 samples.

Results

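Chromatin accessibility was examined at 7 genes that encode subunits of the NCOR corepressor complex and its class I histone deacetylases: Ncor1, Hdac3, Hdac1, Hdac2, Tbl1x, Tbl1xr1 and Gps2. For each gene, every ATAC-seq peak that overlapped the gene body or lay within 5 kb of an annotated transcription start site (TSS) was taken. These 7 genes, of 21755 protein-coding genes, held 221 called peaks over 8 libraries, which merged into 62 of the 183173 accessible regions of the series. All cells came from mammary tumor cell lines driven by the polyomavirus middle T oncogene (MMTV-PyMT, a promoter active in mammary epithelium) in mice of the strain given as FBV/N. WT cells had intact Lats1, and Lats1-CKO cells had lost this Hippo pathway kinase in the epithelial compartment. Tumor cells were sorted into an EpCAM-high, CD49f-high (luminal) and an EpCAM-low, CD49f-high (basal-like) population that was expanded briefly before the assay. The 4 groups held 2 libraries each: WT luminal (BM1 and BM5), WT basal-like (BM2 and BM6), Lats1-CKO luminal (BM3 and BM7) and Lats1-CKO basal-like (BM4 and BM8). The study describes the libraries of a group as biological replicates, and the labels name no animals. The p-values below therefore measure the spread between libraries. The 4 libraries of a genotype pool both populations, and the 4 of a population pool both genotypes. The sources used here do not say whether a luminal and a basal-like library share a parent culture. Independent cultures may thus be fewer than libraries.

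NCOR1 is a large scaffold that unliganded nuclear receptors and other repressors recruit to DNA. It binds and activates HDAC3, which removes acetyl groups from histone tails. TBL1X and TBL1XR1 are closely related WD-repeat proteins that sit in the same complex and act in the exchange of corepressors for coactivators, and GPS2 is a small core subunit. HDAC1 and HDAC2 are the deacetylases of the related SIN3, NuRD and CoREST complexes. In the luminal mammary lineage, NCOR1 is best known as a corepressor of the estrogen receptor.

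All 7 genes were marked by promoter peaks in both genotypes and both populations, and the strength of the promoter peak did not overlap between genotypes at 1 of them, Hdac2. ATAC-seq inserts sequencing adapters into open DNA, and a peak is a stretch where insertions pile up. The deposited lists give each peak a position on mm10 and a score, at least 13 in every library, whose scale moves with depth and was left unnormalized. Here each score was therefore turned into a percentile among all peaks of the same library, where 100 is the highest. A percentile still depends on which other peaks the list holds, so lists of unequal length are not fully comparable. The lists hold no read counts and no depth per library was used here, so no counting error could be given, and a missing peak means only that none was called. The lists held 51497 to 99022 peaks in 7 libraries and 14753 in BM3. Of the peaks in BM3, 53.1% lay within 1 kb of a coding TSS, against 21% to 29.7% in the others. The differences between genotypes at the 7 genes are therefore given with and without it.

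The sequence under the strongest Ncor1 peak is shown because this was the one Ncor1 region open in all 8 libraries. The 103 bases lie directly before a RefSeq TSS of Ncor1 (base 62457332) within the region centred 1.13 kb inside the gene, at chr11:62457333-62457435 of GRCm38.p6 on the minus strand. The Hdac2 sequence (250 bases before its TSS, chr10:36974294-36974543, plus strand) is shown because its highest peak percentile did not overlap between genotypes before single peaks were compared, and that of Tbl1xr1 (chr3:22076402-22076651, plus strand) because it was the GC-richest of the RefSeq promoters of these genes. They are written 5′ to 3′ on the strand of the gene, and capitals mark matches to GGGCGG (SP and KLF factors) or CCGGAAG (ETS factors) on either strand.
Ncor1: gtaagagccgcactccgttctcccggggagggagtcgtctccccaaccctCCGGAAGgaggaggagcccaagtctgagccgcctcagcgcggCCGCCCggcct
Hdac2: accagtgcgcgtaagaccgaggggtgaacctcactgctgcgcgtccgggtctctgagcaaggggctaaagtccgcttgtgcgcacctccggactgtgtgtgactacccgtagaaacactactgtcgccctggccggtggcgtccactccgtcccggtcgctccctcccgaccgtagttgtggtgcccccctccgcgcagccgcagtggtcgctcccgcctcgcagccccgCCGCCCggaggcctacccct
Tbl1xr1: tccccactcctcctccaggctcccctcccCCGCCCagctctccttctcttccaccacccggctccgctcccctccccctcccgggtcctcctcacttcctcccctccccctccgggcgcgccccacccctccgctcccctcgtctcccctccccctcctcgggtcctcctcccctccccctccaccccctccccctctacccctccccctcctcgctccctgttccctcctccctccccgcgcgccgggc
RefSeq gave 6 promoter windows (250 bases before to 50 after the TSS) for 5 of the genes, Ncor1, Hdac2, Tbl1x, Tbl1xr1 and Gps2. Hdac1 and Hdac3 had no entry. GC content was 72.3% in the Ncor1 window above, 69.7% at Hdac2, 75.3% at Tbl1x, 76.3% at Tbl1xr1 and 56.7% at Gps2, against a median of 53% over 32619 promoters. The second Ncor1 window, farther inside the gene, held 38.3% GC and no called peak. A GGGCGG match was present at Ncor1, Hdac2, Tbl1x and Tbl1xr1 and in 35.9% of all promoters. A CCGGAAG match was present at Ncor1 and Gps2 and in 8.92% of all promoters. The Ncor1 window also held AAGATGGCG, the YY1 motif, which 1.4% of all promoters hold, and the Gps2 window held 2 CCAAT boxes of the kind NF-Y binds, which 37.6% hold. None of the windows held a match for CRE (TGACGTCA), AP-1 (TGANTCA), NRF1 (GCATGCGC), the E-boxes CACGTG and CAGGTG, TEAD (GGAATG) or a full estrogen response element.

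A promoter peak, here a peak within 1 kb of any annotated TSS, was called for Ncor1, Hdac1, Hdac2, Hdac3 and Tbl1x in all 8 libraries. This pattern held for 32.5% of all protein-coding genes. Tbl1xr1 and Gps2 had a promoter peak in every library but BM3, so that in the 7 other libraries 7 of 7 genes had one, against 44.3% of protein-coding genes. In BM3 alone it was 5 of 7, against 34.6%. The peaks were of middling strength: the median promoter percentile was 67.7 for these genes and 84.8 for the 9628 genes with a promoter peak in the 7 libraries other than BM3. The highest medians over the 8 libraries were those of Hdac1 (87), Hdac2 (84.9) and Hdac3 (84.9). Ncor1 followed at 67.7, then Tbl1xr1 at 60.7, Tbl1x at 59.1 and Gps2 at 51.4. The ranges over the libraries of all 7 genes overlapped one another.

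**Figure D1:**
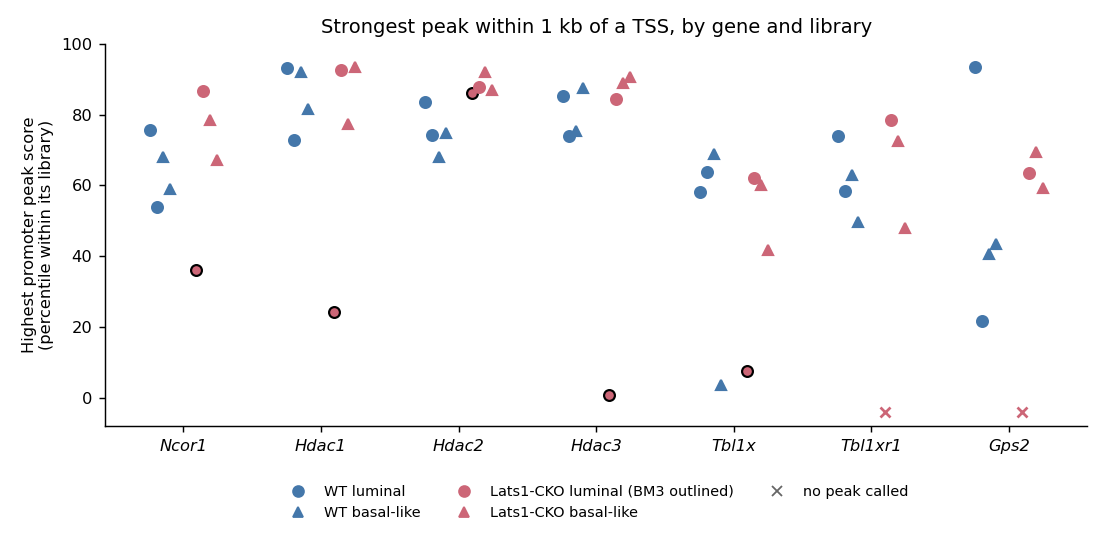
The highest score percentile (y axis, percentile within the library) of a peak within 1 kb of a TSS is plotted for each gene (x axis), 1 point per library, with WT in blue, Lats1-CKO in red, circles for luminal, triangles for basal-like, a black outline for BM3 and crosses where no peak was called. The 4 Lats1-CKO points of Hdac2 sit between 86.2 and 92, all above the WT points, whereas the groups overlap for the other 6 genes.

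Ncor1 (ENSMUSG00000018501, chromosome 11, 62316426 to 62458541, minus strand, 142 kb) encodes the scaffold. Its strongest promoter peak in each WT library had a percentile of 75.7 in BM1, 68 in BM2, 54 in BM5 and 59.1 in BM6. In the Lats1-CKO libraries it was 36 in BM3, 78.5 in BM4, 86.8 in BM7 and 67.3 in BM8. BM3 was lowest of all 8 and BM7 highest, and the groups overlapped. The mean was 67.2 ± 22.3 (SD, n = 4) in Lats1-CKO and 64.2 ± 9.59 (SD, n = 4) in WT libraries, a difference of 2.99 percentile points (exact permutation test, p = 0.8, adjusted p = 1). Without BM3 the difference was 13.4 points (exact p = 0.143).

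Ncor1 had 8 regions, of which 6 were intronic. The region present in all 8 libraries, chr11:62457228-62457597, overlapped an annotated exon 1.13 kb inside the gene and carries the first sequence above. It was the strongest promoter peak in every library except BM8, where the region at the 5′ end itself (chr11:62458359-62458661) ranked higher, at 67.3 against 64.1. That 5′-end region was called in 6 libraries and not in BM3 or BM6. Both regions also lay within 1 kb of a coding TSS of Pigl, a neighbouring gene, so that the peaks cannot be assigned to Ncor1 alone. Far inside the gene, 126 kb from the 5′ end, an intronic region (chr11:62332162-62332463) was called in the same 6 libraries. Its percentile was 49 in BM1, 63.6 in BM2, 84.7 in BM5, 64.3 in BM4, 16.3 in BM7 and 38.3 in BM8. The remaining 5 regions were intronic and each was called in 1 or 3 libraries.

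The total number of Ncor1 peaks was 4 in BM1, BM2 and BM5 and 1 in BM6 among WT libraries, and 1 in BM3, 5 in BM4, 6 in BM7 and 4 in BM8 among Lats1-CKO libraries. These ranges overlapped, with a difference of 0.75 peaks (exact permutation test, p = 0.657, adjusted p = 1) and of 1.75 peaks without BM3 (exact p = 0.286). Across all protein-coding genes, those whose promoter percentiles lay nearest to Ncor1 over the 8 libraries were Gm5129 and Dnajb6, at Euclidean distances of 11.4 and 11.5 percentile points, and Jdp2, at 14.6. Gm5129 and Dnajb6 had the same percentile in every library but BM8.

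**Figure D2:**
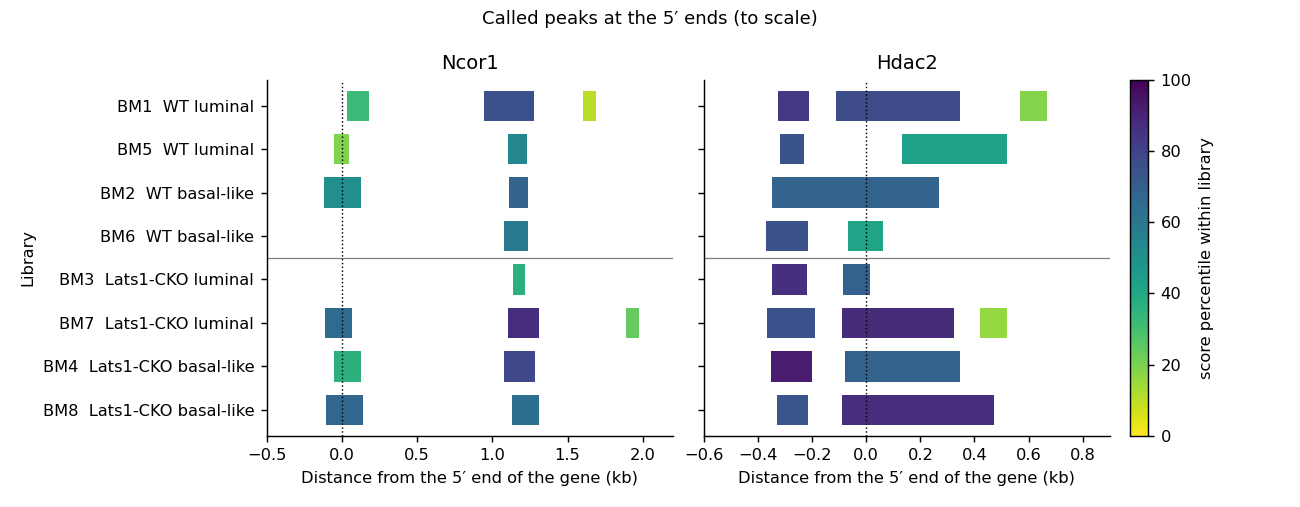
Called peaks at the 5′ ends of Ncor1 (left) and Hdac2 (right) are drawn to scale against the distance from the 5′ end of the gene (x axis, kb), 1 row per library, with darker colour for a higher score percentile. At Ncor1 the region about 1.1 kb inside the gene is present in all 8 rows. At Hdac2 a peak upstream of the 5′ end stands apart from a second peak in all rows but BM2. The second peak lies over the 5′ end, or just inside it in BM5.

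The 3 deacetylase genes had the highest median promoter percentiles of the set, though not the highest value in every library. Hdac3 (ENSMUSG00000024454, chromosome 18, 37935844 to 37955016, minus strand) encodes the catalytic subunit that NCOR1 activates. Its promoter percentile in WT libraries was 85.2 in BM1, 75.3 in BM2, 73.9 in BM5 and 87.6 in BM6. In Lats1-CKO libraries it was 84.5 in BM7, 89.1 in BM4 and 90.8 in BM8, and 0.671 in BM3. The value in BM3 lay at the bottom of that list, while the other 7 libraries stayed within 73.9 to 90.8. The difference between genotypes was -14.2 points with BM3 and 7.64 points without it, and passed the exact permutation test in neither case (p = 0.943 and p = 0.171). The region called in all 8 libraries, 37954915 to 37955134, spanned the 5′ end and lay within 1 kb of a coding TSS of Rell2 as well.

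Hdac1 (ENSMUSG00000028800, chromosome 4, 129516104 to 129542713, minus strand) had a promoter percentile of 93.2 in BM1, 92.2 in BM2, 72.8 in BM5 and 81.7 in BM6. In the Lats1-CKO libraries it was 24.3 in BM3, 77.3 in BM4, 92.6 in BM7 and 93.4 in BM8. Except for BM3, all libraries placed this peak at 72.8 or above, and the genotypes overlapped (difference -13.1 points with BM3 and 2.75 without it, exact permutation test, p = 0.686 and p = 0.714). The promoter region, chr4:129542604-129543006, was called in all 8 libraries. The region chr4:129513172-129513696, downstream of the 3′ end, was called in every library but BM3, yet it lies at a TSS of the neighbouring gene Marcksl1. Its percentile was 94.9 in BM8 and 87 in BM7, and 30.7 to 59 in the other 5.

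Hdac2 (ENSMUSG00000019777, chromosome 10, 36974544 to 37001889, plus strand) was the gene whose promoter percentile separated the genotypes. It was 83.6 in BM1, 68 in BM2, 74.3 in BM5 and 74.9 in BM6 among WT libraries. In the Lats1-CKO libraries it was 86.2 in BM3, 92 in BM4, 87.7 in BM7 and 86.9 in BM8. Every Lats1-CKO library ranked above every WT library. The mean was 88.2 ± 2.61 (SD, n = 4) in Lats1-CKO and 75.2 ± 6.4 (SD, n = 4) in WT libraries, a difference of 13 points. The exact permutation test gave p = 0.0286, the smallest that 4 against 4 libraries allow, and the adjusted p over 14571 genes was 1. All 4 Lats1-CKO libraries ranked higher at 0.398% of these genes and lower at 0.721%, and in the set of 7 this was 1 gene and 0 genes. The difference passed no test after adjustment for any gene: 163 of 14571 had an unadjusted p under 0.05 and 0 an adjusted one.

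The separation at Hdac2 depended on which of its promoter peaks was compared. The merged region chr10:36974174-36975064 held an upstream peak that ended about 0.2 kb before the 5′ end, and a peak over or just inside the 5′ end, which was the wider of the pair in 5 of the 7 libraries that had both. The upstream peak was the highest in BM1, BM3, BM4, BM5 and BM6, the peak over the 5′ end in BM7 and BM8, and in BM2 a single peak covered both. Compared over 1 fixed base within the upstream peak, the percentile was 83.6, 68, 74.3 and 74.9 in WT libraries BM1, BM2, BM5 and BM6. In the Lats1-CKO libraries it was 75 and 73.1 in BM7 and BM8, whereas BM3 and BM4 had 86.2 and 92. These values overlapped, with means of 81.6 ± 9.05 in Lats1-CKO and 75.2 ± 6.4 in WT libraries (SD, n = 4 each, difference 6.38, exact permutation test p = 0.257). Over the 5′ end itself, the means were 78.1 ± 10.6 and 46.8 ± 34.5 (SD, n = 4 each, difference 31.3, exact permutation test p = 0.114), with no peak over that base in BM5. Without BM3 the genotypes still did not overlap in the highest percentile (difference 13.7, exact p = 0.0571), but this was then so, with Lats1-CKO higher, for 10.3% of 14561 genes, and with Lats1-CKO lower for 0.79%.

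Hdac2 had fewer regions than any other gene of the set, with 2, both at the promoter, and 1 to 3 peaks in each library. No peak was called in the rest of the gene body. Hdac1 held 6 regions and Hdac3 held 4.

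Of the 62 regions at the 7 genes, 1 was restricted to a genotype, in an intron of Hdac1, 2.48 kb inside the gene. The 126 bases at chr4:129540166-129540291 held a peak in BM4 (percentile 39.5), BM7 (19.9) and BM8 (33) and in no WT library. BM3 had no peak there either. A region was counted as restricted when BM4, BM7 and BM8 all had a peak and no WT library had one, or when all 4 WT libraries had a peak and none of these 3 did. The 1 region of 62 is 1.61%, against 1.5% of all merged regions, and 0 of 62 were restricted to WT, against 0.0661%. BM4, BM7 and BM8 had the longest lists (86279 to 99022 peaks, against 51497 to 72685 in WT), and the part of list length in this pattern was not tested. The sequence is printed on the strand of Hdac1, with a match to GGGCGG in capitals, and 62.7% of it is soft-masked as repeat in the genome.
Hdac1 intron: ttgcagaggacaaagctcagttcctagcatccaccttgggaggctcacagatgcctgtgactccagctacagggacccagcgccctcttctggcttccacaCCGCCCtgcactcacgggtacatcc

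Tbl1x and Tbl1xr1 held the largest numbers of regions among the 7 genes, most of them intronic. Tbl1x (ENSMUSG00000025246, chromosome X, 77511013 to 77662983, plus strand, 152 kb) held 20 regions, 17 of them intronic, and Tbl1xr1 (ENSMUSG00000027630, chromosome 3, 22076652 to 22216594, plus strand, 140 kb) held 18, 13 of them intronic. Ncor1, of nearly the same length, held 8. Per 100 kb of window this was 12.7 regions at Tbl1x, 12.4 at Tbl1xr1 and 5.43 at Ncor1. The shorter genes had 17 at Hdac1, 16.5 at Hdac3, 32.9 at Gps2 and 5.95 at Hdac2. These counts were not tested.

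The number of Tbl1x peaks was 8 in BM1, 11 in BM2, 11 in BM5 and 9 in BM6 in WT, and 2 in BM3, 11 in BM4, 9 in BM7 and 11 in BM8 in Lats1-CKO libraries. Apart from BM3, all libraries had 8 to 11. By population, the difference of basal-like minus luminal libraries was 3 peaks (10.5 ± 1 against 7.5 ± 3.87, SD, n = 4 each, exact permutation test p = 0.257, adjusted p = 1), and 1.17 without BM3. The promoter percentile was 58.2 in BM1, 68.8 in BM2, 63.9 in BM5 and 3.62 in BM6, and 7.46 in BM3, 60.1 in BM4, 62 in BM7 and 41.8 in BM8. BM6 and BM3 stood far below the other 6 libraries, 1 in each genotype. The genotypes differed by -5.79 points with BM3 and by 6.01 without it (exact permutation test, p = 0.714 and p = 0.914).

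Several Tbl1x introns were open in nearly every library. The region chrX:77559089-77559527, 48.3 kb inside the gene and 48.1 kb from the nearest annotated TSS, was called in all 8 libraries. It was 1 of 6 regions with this pattern at the 7 genes, and the only one away from a promoter. Its percentile was 57.1 in BM1, 62.5 in BM2, 77.4 in BM5 and 80.7 in BM6, and 38.6 in BM3, 6.35 in BM4, 75.5 in BM7 and 32.3 in BM8. The region with the highest median, chrX:77638096-77638351 (127 kb inside), was called in every library but BM3, with percentiles from 38.8 in BM2 to 84.3 in BM6. Another region, 38.1 kb inside (chrX:77548989-77549308), was called in the same 7 libraries at 48.1 to 87.

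Other Tbl1x regions were called in part of the libraries. The region chrX:77533963-77534359, 23.1 kb inside, was called in all 4 basal-like libraries, with 8.45 in BM2, 66.5 in BM6, 90.2 in BM4 and 51.8 in BM8. Among luminal libraries it was called in BM5 alone, at 8.2. A region 45.2 kb inside (chrX:77556084-77556277) showed 69.5 in BM1, 74.7 in BM2, 81.5 in BM5, 27.8 in BM6 and 63.2 in BM7. It was thus called in all 4 WT libraries and in neither Lats1-CKO basal-like library. Neither pattern was tested, since the regions were singled out after their values were seen. With BM7 left out, 0.465% of all merged regions were called in all 4 WT libraries and in neither BM4 nor BM8. The share of all regions with the basal-like pattern was not counted.

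The 3 stretches of Tbl1x below are printed to set these patterns beside their sequence. The first is the last 300 bases before the 5′ end (chrX:77510713-77511012), within the promoter region called in all 8 libraries. The second is the central 200 bases of the intronic region called in all 8 (chrX:77559208-77559407). The last is the central 200 bases of the region called in all basal-like libraries and in the luminal library BM5 (chrX:77534061-77534260). Capitals mark GGGCGG and CAGGTG in the first and TGANTCA, the AP-1 motif, in the last, on either strand. The second held no match to any motif searched.
Tbl1x promoter: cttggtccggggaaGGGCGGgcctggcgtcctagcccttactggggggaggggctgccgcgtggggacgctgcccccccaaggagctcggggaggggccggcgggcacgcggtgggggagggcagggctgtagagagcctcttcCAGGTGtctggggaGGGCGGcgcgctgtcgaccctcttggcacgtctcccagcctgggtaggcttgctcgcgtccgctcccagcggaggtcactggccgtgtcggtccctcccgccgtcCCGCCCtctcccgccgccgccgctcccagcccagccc
Tbl1x intron, all 8 libraries: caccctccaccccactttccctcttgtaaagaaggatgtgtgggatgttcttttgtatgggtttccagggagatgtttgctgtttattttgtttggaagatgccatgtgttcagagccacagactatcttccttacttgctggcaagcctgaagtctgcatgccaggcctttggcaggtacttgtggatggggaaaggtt
Tbl1x intron, basal-like libraries: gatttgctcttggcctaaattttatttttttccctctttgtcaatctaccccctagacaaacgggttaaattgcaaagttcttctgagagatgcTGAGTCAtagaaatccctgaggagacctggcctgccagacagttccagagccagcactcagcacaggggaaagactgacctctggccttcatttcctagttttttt
GC content was 75.7% in the promoter stretch and 48% and 45% in the introns.

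Tbl1xr1 had 5 peaks in each of the 4 WT libraries, and 9 in BM4, 7 in BM7, 9 in BM8 and 0 in BM3 among Lats1-CKO libraries. With BM3 the genotypes overlapped (6.25 ± 4.27 against 5 ± 0, SD, n = 4 each, exact permutation test p = 0.657). Without BM3, the Lats1-CKO libraries held 8.33 ± 1.15 peaks (SD, n = 3), 3.33 more than WT (n = 4), and did not overlap with WT. The exact permutation test then gave p = 0.0286, the smallest possible for 3 against 4 libraries, and an adjusted p of 0.335. This pattern, with Lats1-CKO higher, was seen at 9.97% of 17752 genes, and the reverse at 0.0901%. Per 10000 peaks of the library, Tbl1xr1 had 0.688 in BM1, 0.71 in BM2, 0.851 in BM5 and 0.971 in BM6. The Lats1-CKO libraries BM7, BM8 and BM4 had 0.749, 0.909 and 1.04. On this scale the genotypes overlapped (difference 0.0955 without BM3, exact p = 0.457).

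Most of the Tbl1xr1 regions found in Lats1-CKO libraries alone were called in a single one. Of the 18 regions, 10 were called in 1 library each, and 8 of these 10 in a Lats1-CKO library: 4 in BM4, 3 in BM8 and 1 in BM7. BM4, BM7 and BM8 had the longest lists (86279 to 99022 peaks), and the part of list length in this count was not tested. How many of all single-library regions fell in these libraries was not counted, so the 8 of 10 cannot be set against other genes. A further 2 intronic regions were shared by BM7 and BM8 alone, at chr3:22090524-22090625 and chr3:22115326-22115532, with percentiles between 16.3 and 35.4. The promoter region over the 5′ end (chr3:22076623-22076865) was called in every library but BM3. The highest promoter percentile was 74 in BM1, 63 in BM2, 58.4 in BM5 and 49.6 in BM6, against 78.6 in BM7, 72.6 in BM4 and 47.9 in BM8, so that the genotypes overlapped there as well. The difference was -11.5 points with BM3 at 0 and 5.13 without it (exact permutation test, p = 0.686 and p = 0.629).

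The strongest Tbl1xr1 region by its median lay 114 kb inside the gene, in an intron, at chr3:22190630-22190770. It was called in every library but BM3. Its percentile was 67.4 in BM1, 68.4 in BM2, 62.4 in BM5 and 34.7 in BM6. In Lats1-CKO it was 82.1 (BM4), 71.3 (BM7) and 29.2 (BM8), so that BM4 was highest and BM8 lowest. Its whole sequence is given on the strand of the gene with the AP-1 match in capitals, to be read beside the Tbl1x introns above.
Tbl1xr1 intron: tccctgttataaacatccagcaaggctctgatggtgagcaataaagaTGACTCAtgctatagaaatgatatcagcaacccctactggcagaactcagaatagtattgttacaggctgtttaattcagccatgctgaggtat

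**Figure D3:**
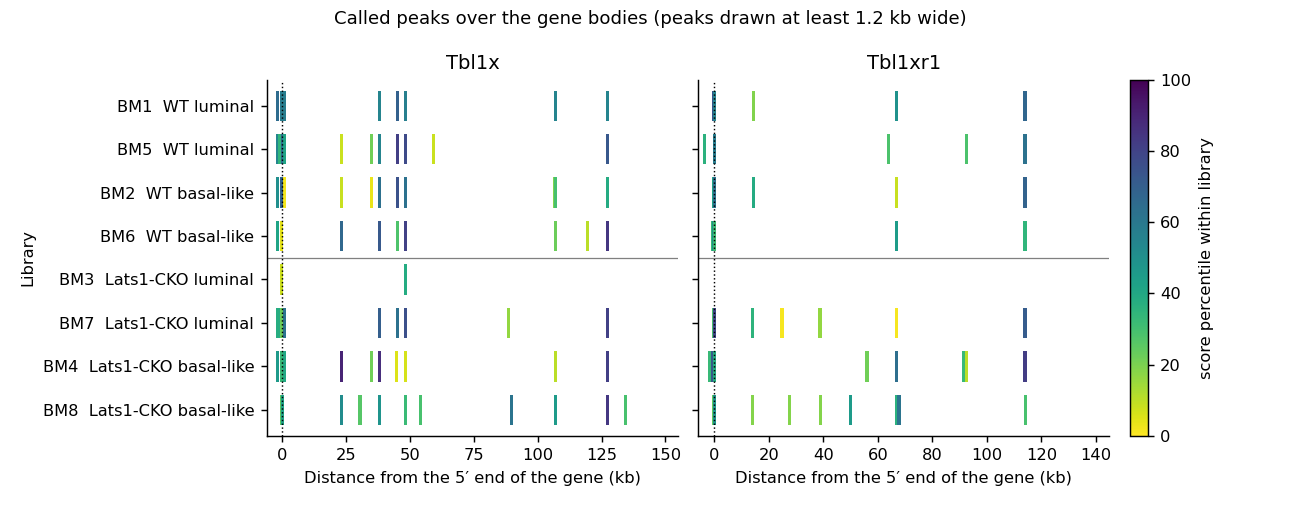
Called peaks along Tbl1x (left) and Tbl1xr1 (right) are drawn against the distance from the 5′ end of the gene (x axis, kb), 1 row per library, darker for a higher score percentile. Bars are widened to at least 1.2 kb to be visible. The Tbl1x region 48.3 kb inside the gene appears in all 8 rows and the Tbl1xr1 region 114 kb inside in all rows but BM3.

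Gps2 (ENSMUSG00000023170, chromosome 11, 69913888 to 69916591, plus strand) is only 2.7 kb long. Its promoter region, chr11:69913714-69914102, was called in every library but BM3. The percentile ranged more widely than at any other gene among WT libraries, with 93.4 in BM1, 40.5 in BM2, 21.8 in BM5 and 43.4 in BM6. In the Lats1-CKO libraries it was 63.4 in BM7, 69.4 in BM4 and 59.4 in BM8. The 3 called Lats1-CKO values lay within the WT range, and the difference was -1.7 points with BM3 at 0 and 14.3 without it (exact permutation test, p = 0.914 and p = 0.486). The region with the highest median within the Gps2 window, chr11:69919646-69920044, lay 3.8 kb from the nearest Gps2 TSS, at a TSS of Eif5a. It was the one peak of the Gps2 window in BM3, at a percentile of 67.6.

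Over the 7 genes together, the number of peaks was 29 in BM1, 28 in BM2, 26 in BM5 and 24 in BM6 in WT, and 8 in BM3, 34 in BM4, 36 in BM7 and 36 in BM8 in Lats1-CKO libraries. The mean was 28.5 ± 13.7 in Lats1-CKO and 26.8 ± 2.22 in WT libraries (SD, n = 4 each), and 35.3 in Lats1-CKO without BM3. The length of the lists moved with these counts. Per 10000 peaks of the library, the WT libraries BM1, BM2, BM5 and BM6 held 3.99, 3.97, 4.42 and 4.66 peaks at these genes. The Lats1-CKO values were 3.64 in BM8, 3.85 in BM7, 3.94 in BM4 and 5.42 in BM3. On this scale the 3 Lats1-CKO libraries with long lists were lowest and BM3 was highest of all 8. The Lats1-CKO minus WT difference was 1.75 peaks as called and -0.0494 peaks per 10000, and without BM3 it was 8.58 and -0.453.

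**Figure D4:**
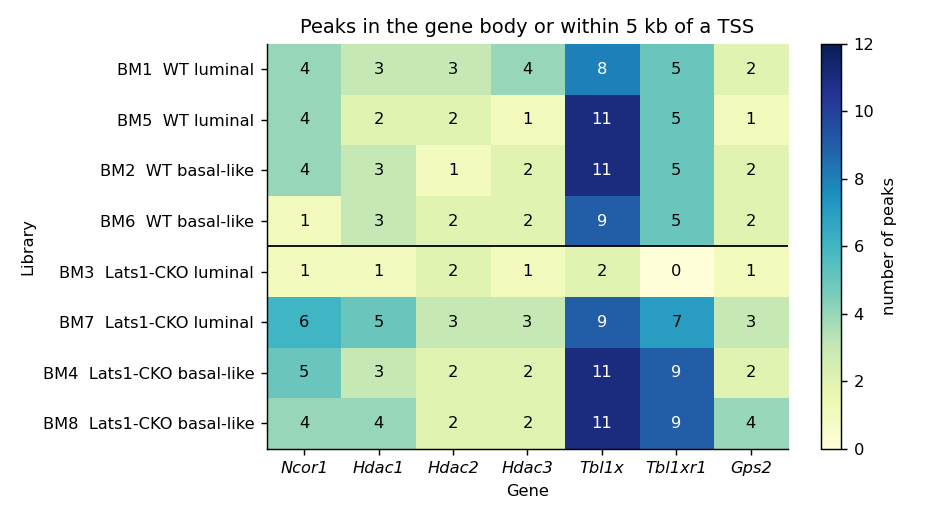
The number of peaks in the gene body or within 5 kb of a TSS is shown for each library (rows, WT above the line and Lats1-CKO below) and gene (columns), with darker cells for more peaks. Tbl1xr1 has 5 peaks in each WT row, 7 to 9 in 3 Lats1-CKO rows and 0 in BM3.

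Without BM3, the mean number of peaks was higher in Lats1-CKO for 7 of 7 genes, against 77.9% of 17752 genes, and the mean promoter percentile was higher for 7 of 7, against 75.2% of 14561 genes. With all 8 libraries, no gene of the set had non-overlapping genotypes in the number of peaks. Among 17758 genes, all 4 Lats1-CKO libraries were higher at 0.0225% and lower at 0.0676%. Unadjusted p-values by the exact permutation test were under 0.05 at 16 of 17758 genes and adjusted ones at 0. The differences for Hdac1, Gps2, Hdac2, Hdac3 and Tbl1x lay between -1.5 and 0.75 peaks, with unadjusted p-values of 0.514 to 1. Without BM3 they lay between 0.0833 and 1.25 peaks, with unadjusted p-values of 0.114 to 1.

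Between the sorted populations, none of the 7 genes separated in either measure with all 8 libraries. In the number of peaks, all 4 basal-like libraries were higher at 0.253% of genes and lower at 0%. In the promoter percentile, they were higher at 0.727% and lower at 0.206%. The largest difference in percentile among the 7 was at Hdac3, with 85.7 ± 7.06 in basal-like and 61.1 ± 40.6 in luminal libraries (SD, n = 4 each), a difference of 24.6 points (exact permutation test, p = 0.171, adjusted p = 1). It was 4.45 points without BM3.

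Most regions at these genes were found in few of the libraries. Of 62 regions, 29 (46.8%) were called in 1 library, against 44.5% of all merged regions, and 6 (9.68%) in all 8, against 5.95%. Of the 6, 5 were promoter regions, of Ncor1, Hdac1, Hdac2, Hdac3 and Tbl1x. BM8, with the longest list of peaks, held 10 of the 29 single-library regions, and BM3, with the shortest, held 0. Of the 62, 42 were intronic, 11 overlapped an exon, 6 lay upstream and 3 downstream, and 20 lay within 1 kb of a TSS of the gene. The median GC content was 65.9% within 1 kb of a TSS and 46.4% beyond it, against 50.4% over all regions. In the central 200 bases, GGGCGG was matched in 14 regions (22.6%, against 10.6% of all regions) and TGANTCA in 10 (16.1%, against 26.1%). The TEAD motif was matched in 6 (9.68%, against 15.8%), and the estrogen response element in 0 (0.0655% of all regions). The shares over all regions were not matched for distance to a TSS or GC content, and these differences were not tested.

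**Figure D5:**
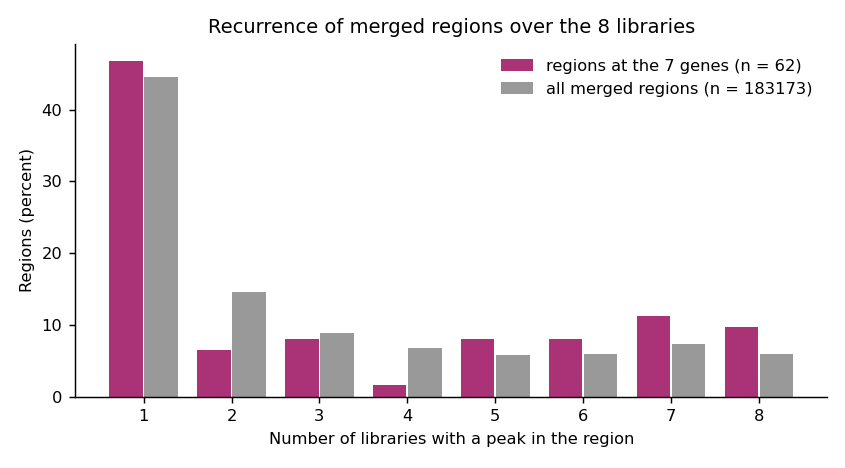
Bars give the share of merged regions (y axis, percent) by the number of libraries in which they were called (x axis), for the 62 regions at the 7 genes and for all 183173 regions. Single-library regions form the tallest pair of bars, 46.8% and 44.5%.

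Among 37 further corepressor genes (subunits of SIN3, NuRD, CoREST and related complexes, other histone deacetylases, CtBP proteins and Nrip1), 30 had a promoter peak in the 7 libraries other than BM3 and 23 in all 8. Over all protein-coding genes, the shares with these patterns were 44.3% and 32.5%. Of 7 coactivator genes, among them Ep300 and Crebbp, 6 and 3 had them. Of the 44, 1 had promoter percentiles that did not overlap between genotypes: Mbd3, which encodes a NuRD subunit. Its percentile was 93.8 in BM1, 92.8 in BM2, 91.9 in BM5 and 92.8 in BM6, and 96.8 in BM3, 97.2 in BM4, 96.3 in BM7 and 96.3 in BM8. The means were 92.9 in WT and 96.7 in Lats1-CKO libraries (exact permutation test, p = 0.0286, adjusted p = 1), and both were near the top of the lists. Over all 14571 genes such a separation was seen at 0.398% (Lats1-CKO higher) and 0.721% (lower).

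The labels were checked where the lists allowed it. Lats1 had a promoter peak in every library but BM3, and a peak at a promoter does not show whether the gene was deleted. Its percentile was 57.6 in BM1, 53.6 in BM2, 62.4 in BM5 and 57.8 in BM6. In Lats1-CKO it was 81.5 in BM4, 75.2 in BM7 and 74.7 in BM8. With BM3 counted as 0, the mean was 57.9 in each genotype. Without BM3, all 3 Lats1-CKO libraries were above WT, a pattern seen at 10.3% of 14561 genes. Epcam had a promoter peak in 6 libraries and none in BM4 and BM8, the basal-like pair of Lats1-CKO. The luminal keratin Krt8 had one in all 8. Krt18, the partner of Krt8, had one in 5, the 4 WT libraries (51 to 57.6) and BM7 (26.2). With BM3, BM4 and BM8 counted as 0, Lats1-CKO was lower throughout (exact permutation test, p = 0.0286, not significant after adjustment). All 4 Lats1-CKO libraries were lower at 0.721% of 14571 genes. The basal keratin Krt14 had one in all 8 and Krt5 in BM7 alone (1.23), so that Krt5 did not mark the basal-like libraries. Of immune genes, Cd3e had no promoter peak in any library and Ptprc had one in BM8. Cdh5 of endothelium had none and Pecam1 had one in 4 libraries. The macrophage gene Cd68 had one in 7, the sorting marker Itga6 (CD49f) in 8 and Col1a1 of fibroblasts in 6. Of the other fibroblast genes, Pdgfrb had a promoter peak in the 4 basal-like libraries alone, at 22.3 to 89.9. Pdgfra was higher in each basal-like than in each luminal library, although BM1 and BM2 both round to 78.7. Each gave p = 0.0286 by the exact permutation test (adjusted p = 1), and such a separation was seen at 0.727% of all genes. The part of such cells in the values above was not tested.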

How the data were processed

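ATAC-seq was done on 8 libraries of sorted PyMT tumor cells. Per the methods and the labels, the authors trimmed reads with cutadapt, aligned them uniquely to mm10 with bowtie 1.0.0, removed mitochondrial reads, duplicates (Picard 2.3.0) and long fragments, called peaks in each library with MACS2 (2.1.1.20160309 in the submitters' processing notes; the methods name another version) and removed blacklisted regions. The authors deposited 1 peak list per library, with a score for each peak, taken to be that of MACS2. One Lats1-CKO luminal replicate is said to have been discarded for quality control when replicates were combined, and is not named in the sources used here, so all 8 lists were kept. Read counts and depth are not in the lists, so the DiffBind comparison of the study was replaced by presence, number and within-library percentile of peaks.

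Gene bodies and TSSs came from GENCODE M21, sequences from RefSeq GRCm38.p6. A peak was counted with an overlap of at least 1 bp. Overlapping or touching peaks were merged into regions over the 8 libraries. A gene without a promoter peak counted as 0 in the tests. Each gene was tested by a two-sided exact permutation test, 4 against 4 libraries (smallest p = 0.0286), with Benjamini-Hochberg adjustment over all protein-coding genes with a peak. The computations (scipy 1.17.1, numpy 2.4.6, pandas 2.3.3, pysam 0.24.0 under python 3.11.15) were tested on simulated data. The members, gene lists and alternatives were chosen with earlier results of these data known. All 7 genes were named, along with the region of highest median, restricted regions and regions in all 8 libraries, other corepressor or coactivator genes whose genotypes did not overlap, and the 3 genes nearest to Ncor1. Further regions and the marker genes were named after their values were seen. Alternatives were each library left out, the 10000 highest-scoring peaks, peaks above the library median, other windows, counts per 10000 peaks, and another merging distance and definition of restricted regions. For Hdac2 single peaks, and for Tbl1xr1 counts per 10000 peaks without BM3, were added after seeing the data.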

Additional observations from a re-analysis of the deposited data

Results flagged for a closer look

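Within the 4 libraries of a genotype or a population, a library was listed when its gap to the nearest other library exceeded Dixon's 95% critical share of the group's range (which chance alone meets in about 1 of 20 groups of continuous values); 14 of 60 groups had one. In small whole numbers, 1 differing library meets this rule whenever the other 3 are tied. This applied to the 8 peak counts listed: Ncor1 with 1 peak in BM6 among WT libraries, Hdac1 with 2 in BM5 among WT and 4 in BM8 among basal-like libraries, Hdac2 with 3 in BM7 among Lats1-CKO and 1 in BM2 among basal-like libraries, Tbl1x with 9 in BM6 among basal-like libraries, and Gps2 with 1 in BM5 among WT and 4 in BM8 among basal-like libraries.

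BM3 accounted for 5 of the 14. Its promoter percentile was 0.671 at Hdac3, low among both the Lats1-CKO and the luminal libraries, 7.46 at Tbl1x among the luminal libraries and 0 (no peak) at Gps2 among the Lats1-CKO libraries. It held 8 peaks at the 7 genes together. The remaining one was the Tbl1x promoter in BM6, at a percentile of 3.62 among WT libraries, although BM6 had 9 Tbl1x peaks. The genotype effect did not have opposite signs in every luminal and every basal-like library for any of the 7 genes.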

How the results depend on the processing

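Depth per library was not used here, and a list of 10000 peaks kept 0 genes with a promoter peak in all libraries, down from 5, and 0 genes with non-overlapping promoter percentiles between genotypes, down from 1. Above the library median, 1 gene kept a promoter peak in all 8. The shares of all protein-coding genes were not counted at either cut, so these drops cannot be set against other genes. With 2 of 3 Lats1-CKO or 3 of 4 WT libraries, 3 regions were restricted, all to Lats1-CKO: 1 in Hdac1 and 2 in Tbl1xr1 introns. Under that definition, 8.71% of all merged regions were restricted to Lats1-CKO and 0.67% to WT. Leaving out each library in turn gave 1 to 3 restricted regions. Of all merged regions, 1.5% to 6.53% were then restricted to Lats1-CKO and 0.0663% to 0.55% to WT. It also gave 0 to 1 genes separated in number of peaks by genotype (Tbl1xr1 without BM3). In promoter percentile by population it gave 0 to 1 (Hdac3 without BM2, exact permutation p = 0.2). The share of all genes separated by population without BM2 was not counted, so this case cannot be set against other genes. Hdac2 remained separated by genotype without each library (differences 10.6 to 15.8), with an exact permutation p = 0.0571 when any 1 Lats1-CKO library was left out. No paired analysis was possible because the labels give no replicate numbers and no source used here pairs a library with another.

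The other differences had no call, and their sign changed as follows; the cause was not tested. Lats1-CKO minus WT in number of peaks became 0.25 at Hdac3 in the 10000 highest-scoring peaks, -0.25 at Ncor1 and -0.25 at Tbl1xr1 above the library median, and 0.00997 at Hdac3 and -0.13 at Tbl1xr1 per 10000 peaks. In promoter percentile it became -6.02 at Ncor1 and 24.7 at Gps2 above the library median, and -4.69 and 17.1 within 5 kb. Basal-like minus luminal in number of peaks became 0.75 at Hdac3 and -0.5 at Gps2 in the 10000 highest-scoring peaks. Above the library median it became 0.75 at Ncor1, 1 at Hdac3, -0.75 at Tbl1x and -0.25 at Tbl1xr1, and per 10000 peaks -0.0514 at Hdac1 and -0.034 at Gps2. In promoter percentile it became -1.4 at Ncor1 and -13 at Gps2 in the 10000 highest-scoring peaks, and -18.9 at Tbl1xr1 and -6.97 at Gps2 above the median. It became -2.59 at Ncor1 and 3.41 at Tbl1x within 5 kb, and -1.73 at Ncor1 at the 5′ end only.

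Leaving out libraries, Lats1-CKO minus WT in number of peaks ranged from -0.0833 to 1.25 at Hdac1, -0.0833 to 0.583 at Hdac2, -0.667 to 0.333 at Hdac3 and -2.42 to 0.583 at Tbl1x. In promoter percentile it ranged from -3.56 to 13.4 at Ncor1, -20.3 to 2.75 at Hdac1, -22.4 to 7.64 at Hdac3, -20.8 to 6.01 at Tbl1x, -21.1 to 5.13 at Tbl1xr1 and -11 to 14.3 at Gps2. Basal-like minus luminal in number of peaks ranged from -1.17 to 0.583 at Ncor1, -0.0833 to 1.25 at Hdac1 and -0.667 to 0.333 at Hdac3. In promoter percentile it ranged from -3.94 to 13 at Ncor1, -0.078 to 22.9 at Hdac1, -6.32 to 1.68 at Hdac2, -17.8 to 9.01 at Tbl1x, -12.1 to 14.1 at Tbl1xr1 and -6.33 to 24.8 at Gps2.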
